A study of Cricetulus griseus with 10 samples.

Results

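The genes described here are those of CHO-K1 cells whose RNA stood higher at passages 6 and 10 of suspension adaptation than at any earlier sampled passage. CHO-K1 is an established cell line that was derived from Chinese hamster ovary. A gene was taken when its mean over the 10 libraries was at least 50 normalised reads, and when the lowest of its 4 late libraries (P6 and P10) was at least 1.3 times the highest of its 6 early libraries (P0, P2 and P4). Features named by coordinates were left out. The table held 25156 features, of which 10741 had a high enough mean, and the rule gave 145 genes, or 1.35% of the 10741. The mirror rule for a late fall, with the same ratio, gave 54 features, or 0.503%. Because the rule used the late and early values, the difference between late and early libraries is given for these genes as a description without a test.

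The groups were wild-type CHO-K1 cells at passages 0, 2, 4, 6 and 10, called P0, P2, P4, P6 and P10, with 2 libraries of RNA each. The labels name SFM4CHO as the medium for every passage, and the series title calls the medium serum free. How the P0 cells had been grown before is not stated. All groups came from 1 cell line, and the labels give no parallel culture, so passage number and time in culture cannot be told apart. The labels do not say whether the 2 libraries of a passage came from separate cultures, and the p-values then cover only the spread between these libraries, which may be technical.

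Most of the late-rising genes with an assigned role act in the cell cycle, chromatin, or DNA replication and repair. A dividing cell copies its DNA in S phase and then condenses, attaches, separates and partitions its chromosomes in mitosis and cytokinesis. Cyclins bind cyclin-dependent kinases to drive these steps, and ubiquitin-dependent breakdown of cyclins and other regulators ends them. RNA of many of these genes is made mainly in S phase or in G2 and M phase, so their level in bulk RNA is widely used as a readout of proliferation. In bulk RNA, more cells in a phase and more RNA per cell cannot be told apart.

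Recovered reads per library ran between 8394219 and 16599495, and the Pearson correlation of log2 values between duplicates was 0.988 at P0, 0.989 at P2, 0.992 at P4, 0.956 at P6 and 0.930 at P10. Libraries at P6 and P10 therefore resembled their duplicates less than the early ones did. A single gene, Dym, took between 8.53% and 13.5% of the normalised reads in the 6 early libraries. Its share was 4.32% and 1.15% in P6 replicates 1 and 2, and 1.41% and 10.7% in P10 replicates 1 and 2, so P6 replicate 2 and P10 replicate 1 stood apart. No gene of the 7 marker lists (epithelial, mesenchymal, ovarian follicle, leukocyte, endothelial, neural and muscle) was among the 145. Markers with a mean under 50 could not have been taken by the rule. Krt7, Cldn3, Cldn4, Cyp19a1, Foxl2, Tubb3 and Map2 were not found by name, so the sums leave them out. The summed epithelial markers ran between 64.0 and 351 normalised reads in late libraries and between 181 and 286 in early ones. Most of this was Cdh1, with 50.6 to 337 late and 164 to 280 early. Epcam, Krt8, Krt18 and Krt19 had at most 16.4, 4.95, 1.12 and 1.69. The leukocyte sum ran between 105 and 207 late and between 49.7 and 207 early. The muscle sum ran between 386 and 1036 late and between 553 and 743 early. Most of it was Actn2, with 344 to 1015 late and 515 to 716 early. Des, Myog, Tnnt2 and Myh6 had at most 8.91, 1.12, 33.1 and 19.1. The endothelial sum ran between 219.9 and 8130 in late libraries and between 263 and 28730 in early ones, almost all of its upper end being Stab2, while Pecam1, Cdh5 and Kdr had at most 42.5, 3.37 and 5.62. The mesenchymal sum ran between 21982 and 26073 in late libraries and between 19011 and 24406 in early ones. Vim had 16893 to 23048 late and 12373 to 16828 early, and Fn1 had 1287 to 2797 late and 3600 to 7604 early. S100a4 and Pdgfrb reached at most 3983 and 805. Cdh2, Col1a1 and Col1a2 had at most 48.1, 54.8 and 3.37, and Thy1 had 0 in every library. The labels give ovary as the source, and of the ovarian follicle markers Amh, Fshr and Inha had at most 17.5, 50.6 and 15.8. The neural sum reached at most 14.6, and the part of these markers in the results was not tested.

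Relative to each gene's mean over the early libraries, the median of the 145 genes was 0.903 and 0.903 in the P0 libraries, 1.07 and 1.01 in those of P2 and 1.06 and 1.06 in those of P4. It was 2.02 and 2.02 at P6 and 2.995 and 1.74 at P10, replicate 1 being given before replicate 2. The same median over all 10741 features stayed between 0.912 and 1.04. The 145 genes together held between 1.97% and 4.04% of the normalised reads in the late libraries and between 1.07% and 1.29% in the early ones.

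**Figure D1:**
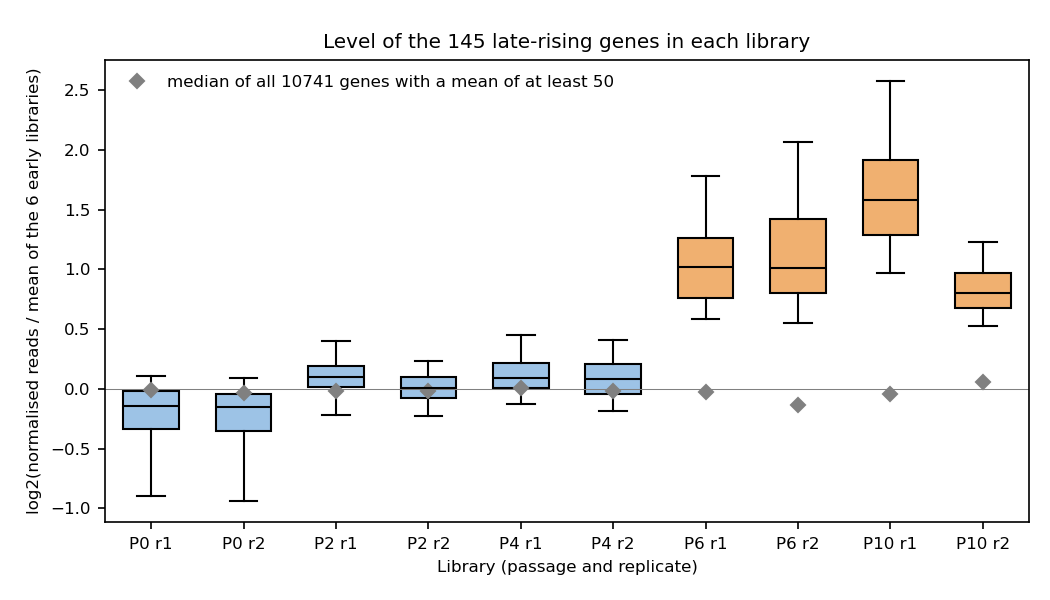
Level of the 145 genes in each library, as log2 of the normalised reads over the gene's mean in the 6 early libraries. Boxes show the quartiles and the median, whiskers run between the 5th and 95th percentiles, orange marks the late and blue the early libraries, and diamonds show the median of all 10741 features. P10 replicate 1 has the highest box (median ratio 2.995), and P10 replicate 2 the lowest of the late ones (1.74).

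The ratio of late to early means had a median of 2.20 and ran between 1.498 and 8.85, and 97 of the 145 genes reached 2. The gap between the groups was smaller, since the lowest late library exceeded the highest early one by a median ratio of 1.43. For 41 genes that ratio was at least 1.5, and for 68 genes it was under 1.4. Just inside the threshold were Aspm, a spindle-pole protein gene (1.302), the serotonin receptor gene 5-ht1b (1.303) and Mtus1 (1.304), and just outside it were Rexo2 (1.299), Gpsm2 (1.299) and Trim54 (1.297). The 2 genes with a ratio of at least 2 have no symbol in the sources used here. The feature LOC100760951 had 84.5 and 96.6 normalised reads at P6 and 225 and 157 at P10, and between 12.9 and 22.4 in the early libraries.

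A role could be assigned to 91 of the 117 genes that have a symbol, and most of these act in cell division, chromatin, or DNA replication and repair. They comprised 13 genes of cyclins, kinase partners and ubiquitin factors, 13 of the spindle and cytokinesis, 11 of the kinetochore, 9 of cohesin, condensin and chromatin, 9 of DNA repair and 7 of DNA replication. RNA processing, ribosome and translation accounted for 12 genes, nucleotide synthesis, chaperones and sterol and energy metabolism for 4 each, and secreted proteins, receptors and cell contacts for 5. The median ratio of late to early means lay between 1.86, in the RNA and translation group, and 3.21, in the secreted and contact group. Roles were assigned to members only, so no share over all features stands beside the counts by role.

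**Figure D2:**
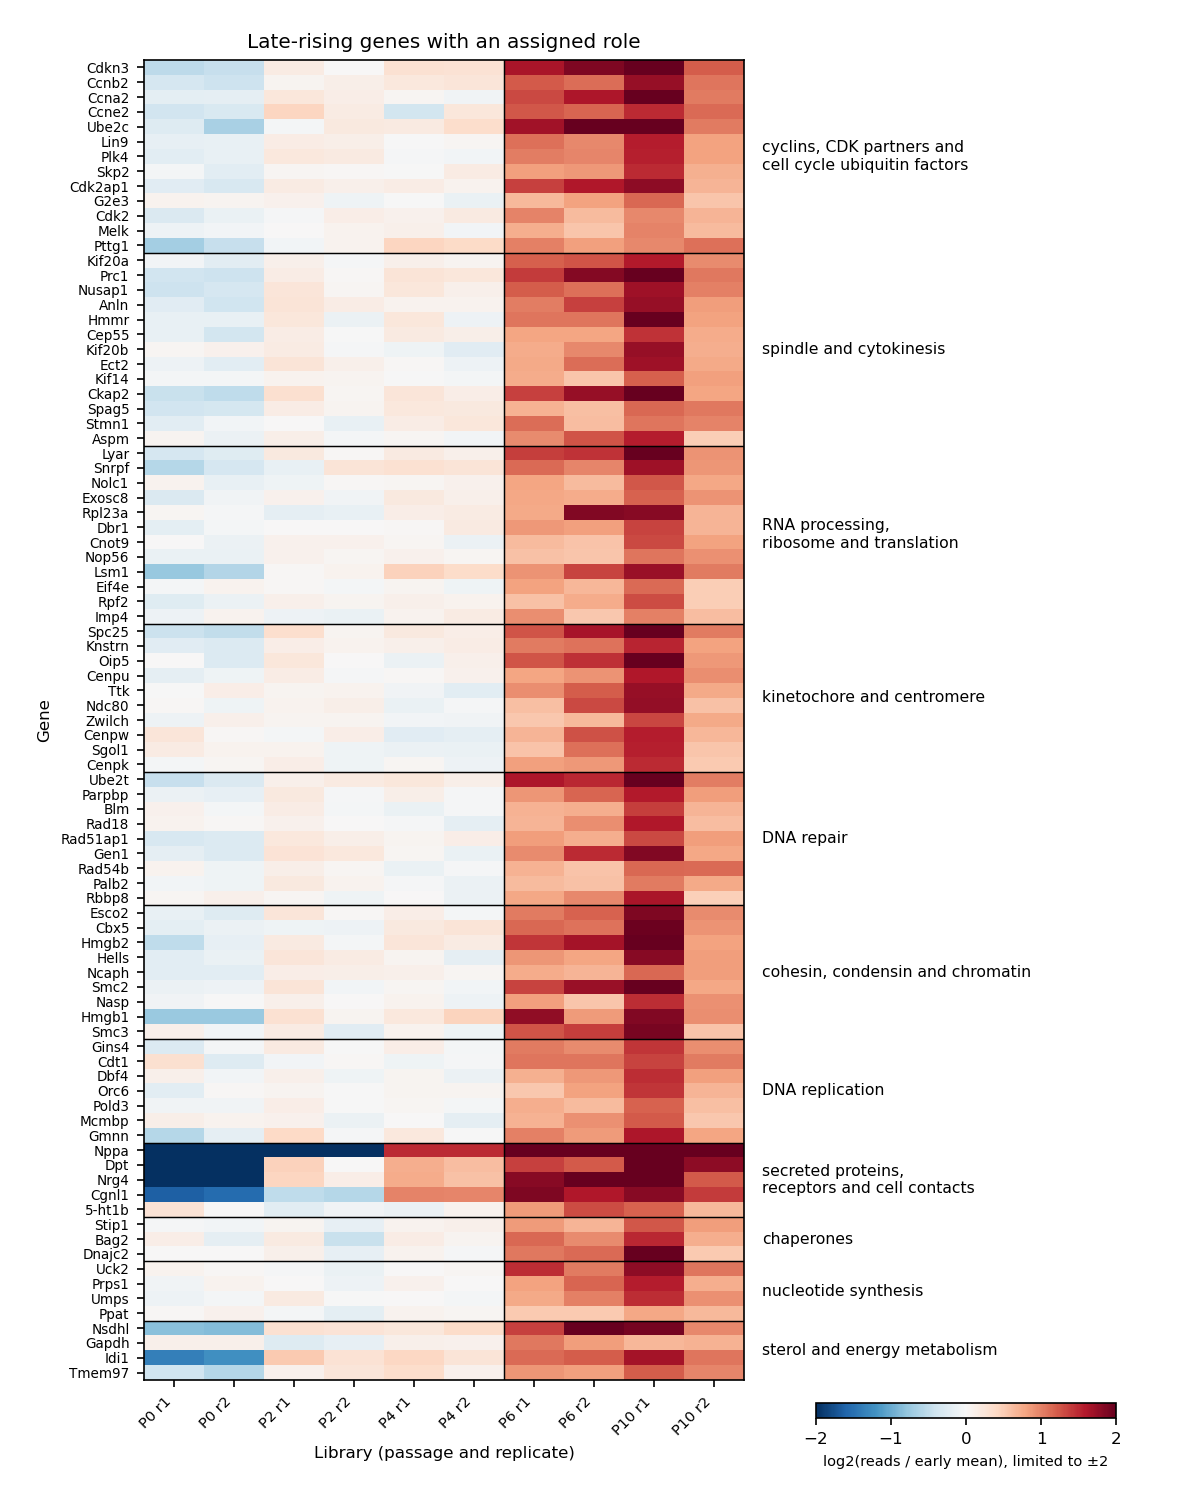
Late-rising genes with an assigned role (89 of the 91 are drawn, grouped by role and ordered by ratio within a group) in the 10 libraries, in order of passage. Colour gives log2 of the normalised reads over the gene's mean in the 6 early libraries, limited to the range from -2 to 2. The late columns are red throughout and for most genes darkest in P10 replicate 1, and the secreted and contact genes Nppa, Dpt, Nrg4 and Cgnl1 are blue at P0 and already pale to red at P4.

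Among the cyclins, Ccnb2, which encodes cyclin B2 of mitotic entry, had 929 and 881 normalised reads at P0, then 1210 and 1267 at P2, then 1353 and 1387 at P4, then 2751 and 2531 at P6 and lastly 3916 and 2464 at P10. Ccna2, the gene of the S and G2 phase cyclin A2, had 1273 and 1279 in its P0 libraries, 1693 and 1596 in its P2 libraries, 1491 and 1381 in its P4 libraries, 3614 and 4441 in its P6 libraries, and 6275 and 2983 in its P10 libraries. The P2 and P4 libraries of both genes lay above their P0 libraries, for Ccnb2 with no overlap at either early step, and P10 replicate 1 held the top value of each. Ccne2, which encodes the G1/S cyclin E2, drew fewer reads, with 97 and 91 at P6, 115 and 89.7 at P10, and 31.4 to 55.2 in the early libraries.

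Cdkn3 encodes a phosphatase that acts on cyclin-dependent kinases. It had 3207 and 3749 normalised reads at P6 and 4848 and 2378 at P10, against 720 to 1270 in the early libraries. Its lowest late value, in P10 replicate 2, was 1.87 times the highest early one. The set also held Cdk2 itself, Skp2, an F-box protein of a ubiquitin ligase, Ube2c, the ubiquitin-conjugating enzyme of the anaphase-promoting complex, and Pttg1, which encodes securin, the inhibitor of sister chromatid separation. Ube2c had the largest ratio of late to early means in this role group, 4.03, with 1100 and 1521 at P6, 2180 and 702 at P10, and 217 to 437 in the early libraries. The P10 libraries differed more from each other for Ube2c than the lower of them differed from P4.

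Of the spindle and cytokinesis genes, Prc1, which encodes a protein that bundles microtubules at the spindle midzone, drew the most reads, a number that also depends on transcript length. It had 2087 and 2047 normalised reads at P0, then 3027 and 2767 at P2, then 3270 and 3181 at P4, then 7171 and 9791 at P6 and lastly 12849 and 5684 at P10. Kif20a, a kinesin motor of cytokinesis, had 1961 and 2063 at P6 and 2595 and 1661 at P10, against 743 to 927 in the early libraries. Anln, the gene of the contractile ring protein anillin, had 5576 and 7084 at P6 and 9167 and 4916 at P10, against 2087 to 3281. For all 3 genes the P10 libraries lay on either side of both P6 libraries. Depdc1a, a DEP domain gene to which no role was assigned, had 1445 and 1567 at P6 and 2497 and 1505 at P10, against 639 to 835 in the early libraries.

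Nusap1, the gene of a spindle-associated protein, had 2630 and 2454 normalised reads at P6 and 3668 and 2298 at P10, and 855 to 1340 in the early libraries. Spag5, which encodes the spindle protein astrin, was 1 of 22 genes with both P10 libraries above both P6 libraries, at 6128 and 5725 against 4472 and 4183. At the kinetochore, the complex that joins chromosomes to spindle microtubules, Spc25 and Ndc80 encode subunits of the same outer complex. Spc25 had 1934 and 2557 at P6, 3595 and 1672 at P10, and 578 to 1027 early, and Ndc80 had 1693 and 2791 at P6, 3773 and 1673 at P10, and 1021 to 1214 early. P10 replicate 2 held the lowest late value of both. Ttk, the spindle checkpoint kinase, had 1220 and 1480 at P6 and 2149 and 1088 at P10, and 552 to 704 in the early libraries.

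**Figure D3:**
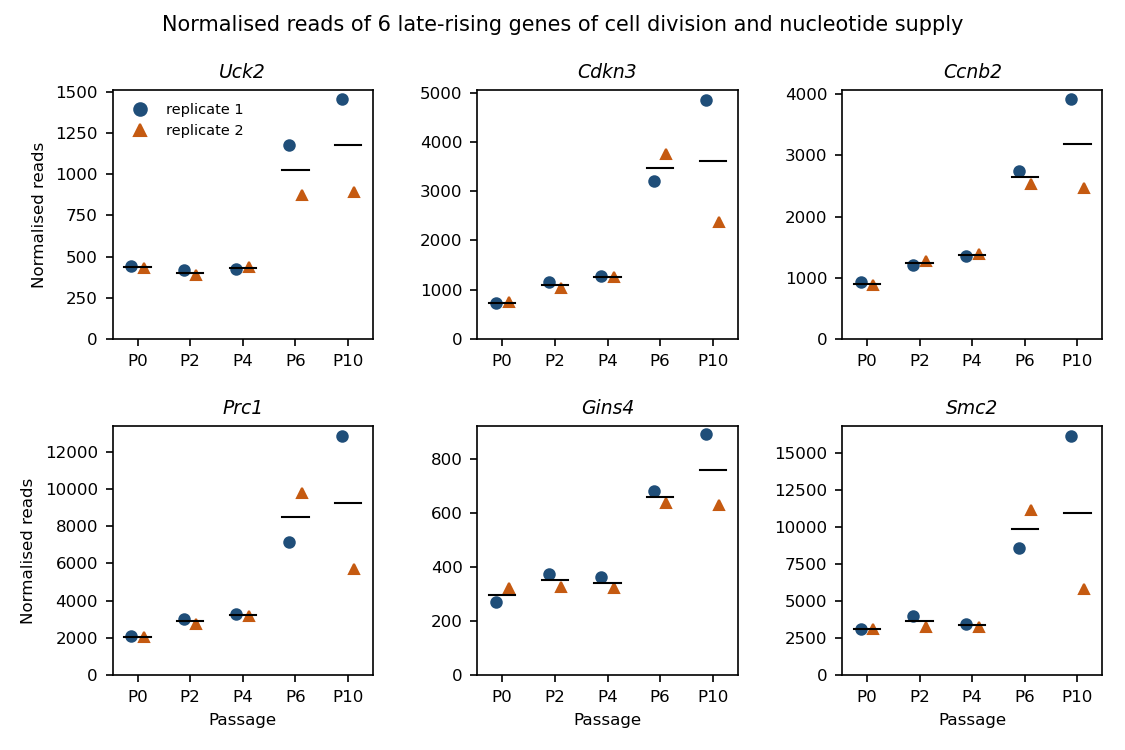
Normalised reads of Uck2, Cdkn3, Ccnb2, Prc1, Gins4 and Smc2 by passage on linear axes starting at 0. Circles are replicate 1, triangles replicate 2, and lines the mean of the 2 libraries. In all 6 panels P10 replicate 1 is the highest point, with the 4 late points above all early ones.

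Smc2 encodes a core subunit of condensin, the complex that compacts mitotic chromosomes. It had 3117 and 3132 normalised reads in its P0 libraries, 4015 and 3261 in its P2 libraries, 3452 and 3262 in its P4 libraries, 8589 and 11141 in its P6 libraries, and 16150 and 5773 in its P10 libraries. Smc3, a core subunit of cohesin, which holds sister chromatids together, had 7411 and 8090 at P6, 11554 and 4613 at P10, and 2653 to 3503 in the early libraries. For both genes P10 replicate 2 lay nearer to the early libraries than to its own duplicate. Hells, a chromatin remodeller, Cbx5, a heterochromatin protein gene, Nasp, a histone chaperone gene, and Hmgb2, a gene of a DNA-bending chromatin protein, had ratios of late to early means between 1.97 and 2.90. Ptma, the gene of the chromatin-associated protein prothymosin alpha, had 12695 and 10604 at P6 and 15054 and 11164 at P10, against 4784 to 5983. Ptma and Hmgb1 have near-identical copies in mammalian genomes, so their counts are uncertain.

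For DNA replication, the set held Gins4, a subunit gene of the replicative helicase, Cdt1 and Orc6, which license origins, Gmnn, whose product geminin inhibits Cdt1, and Dbf4, the activator of a kinase that fires origins. Gins4 had 272 and 320 normalised reads at P0, then 375 and 326 at P2, then 362 and 321 at P4, then 680 and 636 at P6 and lastly 891 and 629 at P10. Cdt1 had 171 and 172 at P6 and 210 and 168 at P10, against 69.0 to 103 in the early libraries, the highest of which was a P0 library. By ratio, the duplicates of these 2 genes lay closer together at P10 than those of Smc2 or Prc1. Among the repair genes, Ube2t, a ubiquitin-conjugating enzyme of the Fanconi anaemia pathway, had the largest ratio of means, 3.11. The RecQ helicase gene Blm, Rad54b and Rad51ap1, which act in homologous recombination, and Palb2, a partner of these factors, had ratios between 1.70 and 1.93.

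Uck2, a salvage kinase for uridine and cytidine, had the widest gap between late and early libraries among genes with a symbol. It had 443 and 431 normalised reads in its P0 libraries, 419 and 387 in its P2 libraries, 425 and 436 in its P4 libraries, 1175 and 874 in its P6 libraries, and 1458 and 892 in its P10 libraries, and its lowest late value was 1.98 times the highest early one. Its early libraries were flat. The other nucleotide genes were Prps1, which makes the sugar phosphate for all nucleotides, Umps, which completes UMP, and Ppat, the committed step of purine synthesis. Prps1 had 3108 and 3997 at P6 and 5279 and 2937 at P10, against 1655 to 1885, and Ppat had 750 and 745 at P6 and 892 and 815 at P10, against 455 to 550.

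In the RNA and translation group, Lyar, a nucleolar protein gene, had 1826 and 1915 normalised reads at P6 and 3387 and 1317 at P10, against 555 to 802 in the early libraries. Nop56, a core protein of box C/D small nucleolar ribonucleoproteins, had 3428 and 3353 at P6 and 4809 and 4323 at P10, against 2078 to 2426, and its P10 libraries both exceeded its P6 libraries. Nolc1, Imp4, the spliceosome gene Snrpf and Eif4e, the cap-binding translation factor, had ratios of late to early means between 1.73 and 2.31. Rpl23a, a ribosomal protein gene, had 21279 and 45517 at P6, 44861 and 20332 at P10 and 11118 to 14152 in the early libraries. Its high late values were those of the 2 libraries with the lowest Dym share, and the part of that share in the result was not tested. Rpl23a and Gapdh have many processed copies in rodent genomes, so their counts are also uncertain.

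Gapdh, the glycolytic enzyme gene often used as a reference, was a member, with 36388 and 31214 normalised reads at P6, 27767 and 28324 at P10, and 14591 to 18832 in the early libraries. It was the only one of 22 tested glycolysis and lactate genes in the set. Cse1l, an exporter of importin alpha, was the single member of the list of nuclear pore and karyopherin genes, with 3788 and 4469 at P6, 7500 and 4049 at P10, and 2167 to 2785 early. The chaperone genes included Stip1, which links HSP70 and HSP90, Dnajc2, a ribosome-associated cochaperone, and Bag2. Stip1 had 3223 and 2854 at P6 and 4214 and 3190 at P10, against 1605 to 1914. Among these genes the P10 duplicates were furthest apart for Dnajc2, with 6505 and 2105 at P10 beside 3046 and 3215 at P6.

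The 145 genes were then set against lists of genes by function, tested in all libraries for the late (P6 and P10) against the early passages. Over all 13521 features tested, 22.9% passed at an adjusted p under 0.05, of which 1698 (12.6%) were higher and 1394 (10.3%) lower, with a median log2 difference of -0.03. All 145 late-rising genes were among the higher ones, which follows from the rule and says nothing more. Of 54 tested genes for mitosis and G2/M, 16 were late-rising genes, 38 were higher and 1 was lower, with a median log2 difference of 0.73. Of 50 DNA replication and S phase genes, 6 were late-rising genes, 24 were higher and none lower, with a median of 0.45. These lists hold members, so their counts are not independent of the rule.

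Outside the late-rising set, 22 of the other 38 mitosis genes and 18 of the other 44 replication genes were higher. Only 6 of those 44 replication genes had all late libraries above all early ones. Of the 38 mitosis genes, 19 did, beside 7.97% of the 10596 other features with a mean of at least 50. Of the same 38, 13, or 34.2% beside 3.5%, had a ratio of 1.1 to 1.3, short of the threshold. Smc4, the partner of Smc2 in condensin, was one of them, at a log2 difference of 1.21 (SE 0.24, adjusted p = 0.0120) and a ratio of 1.26. Racgap1, a cytokinesis regulator, was higher by 0.97 (SE 0.13, adjusted p = 0.00398), Clspn, a replication checkpoint gene, by 1.01 (SE 0.11, adjusted p = 0.00251) and Pold2, a DNA polymerase delta subunit gene, by 0.96 (SE 0.11, adjusted p = 0.00275). These 4 were picked for the largest differences outside the set in their lists, so their p-values follow that choice. Not all genes of the lists were higher. Ncapd2, another condensin subunit gene, fell by 1.42 (SE 0.37, adjusted p = 0.0282), with 3567 and 2075 normalised reads at P6 and 3137 and 12242 at P10, against 8009 to 15855 in the early libraries. Its P10 replicate 2 thus lay within the early range. Aurkb, the kinase of the chromosomal passenger complex, did not pass, at -0.80 (SE 0.27, adjusted p = 0.0612). The lowest genes of the replication list, Timeless and Uhrf1, did not pass either (adjusted p = 0.148 and 0.429). Mki67 had 4436 and 3002 normalised reads at P0 and 993 to 1639 at P2 and P4. It had 1408 and 3050 at P6 and 3190 and 1343 at P10, and did not pass (adjusted p = 0.611). Nor did Pcna (adjusted p = 0.138), Mcm2 (0.182) or Cdk1 (0.458), while Top2a was higher (adjusted p = 0.0282).

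**Figure D4:**
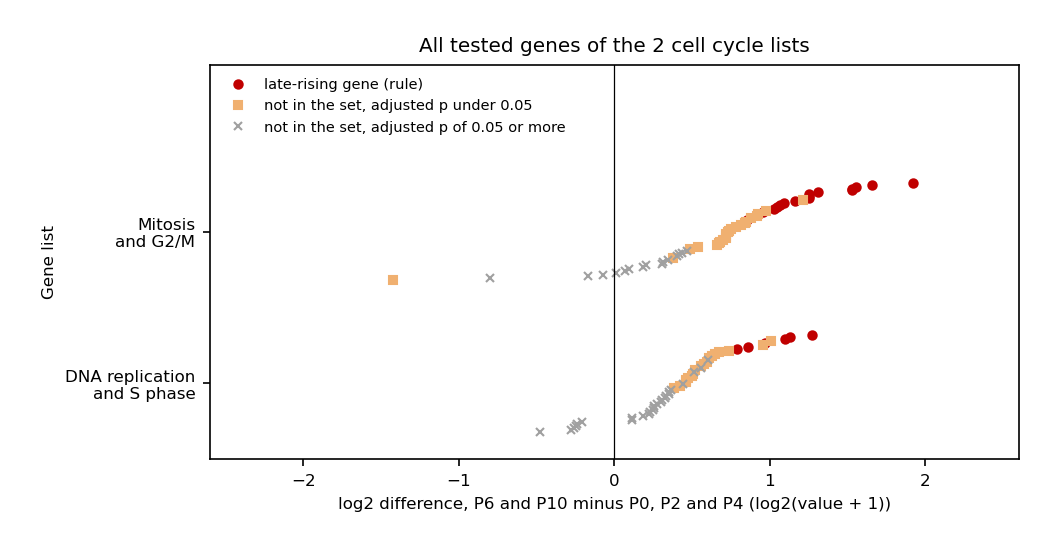
Log2 difference of P6 and P10 against P0, P2 and P4 on the log2(value + 1) scale for each tested gene of the mitosis and G2/M list (54 genes) and the DNA replication and S phase list (50 genes), ordered by size within a list. Red circles are late-rising genes, orange squares other genes with an adjusted p under 0.05, and grey crosses the rest. Most points lie right of 0 in both lists, and the lowest point is Ncapd2 at -1.42.

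Further lists were tested in the same way. DNA repair had 4 of 40 tested genes in the set, with 16 higher and 1 lower, and a median of 0.36. With 1 library left out, 8 to 20 of these were higher and at most 3 lower. Histones and chromatin assembly had 6 of 21, with 12 higher and 1 lower, and a median of 0.56, and 8 to 14 were higher with 1 library left out. Nucleotide synthesis had 4 of 31, with 10 higher and 1 lower, and a median of 0.14, where leaving out 1 library gave 7 to 12 higher, up to 8 lower (without P10 replicate 2) and medians of 0.04 to 0.19. Ribosome biogenesis had 3 of 34, with 13 higher and none lower, and a median of 0.19, and 5 to 14 were higher and at most 3 lower with 1 library left out. In all 4 lists the lowest counts of higher genes came without an early library, for histones also without P6 replicate 2. None of the 145 was in the lists for extracellular matrix, immediate early genes, lysosome and autophagy, the proteasome or the respiratory chain. These lists had 26 to 36 tested genes, and the 145 were 1.35% of features with a mean of at least 50. At that share such lists may hold none, so their absence says little about the set. Of 36 extracellular matrix genes 5 were higher and 20 lower, Dpt not being on that list. Among 26 immediate early genes none was higher and 13 were lower. In the lysosome list 1 of 26 was higher and 9 lower. The proteasome list had 6 of 32 higher and none lower, and the respiratory chain list 3 of 27 higher and 2 lower. With 1 library left out, the lower genes numbered 12 to 23 in the extracellular matrix list, 5 to 13 in the immediate early list, 0 to 15 in the lysosome list and 0 to 12 in the respiratory chain list, and the higher genes 1 to 9 in the proteasome list.

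The counts for the cell cycle lists depended on the libraries entered. The median log2 difference with P6 replicate 2 and P10 replicate 1 left out together was 0.72 for the mitosis list and 0.58 for the replication list. Over all features it was 0.007. Leaving out 1 library at a time gave medians of 0.70 to 0.84 for mitosis and 0.37 to 0.50 for replication. Over all features they ran between -0.03 and -0.02. The counts of higher genes changed, and without P10 replicate 2 more genes of both lists were lower than with all libraries. The replication count was 14 to 16 when any 1 of the 6 early libraries was left out, and the call of Ncapd2 was then lost, as it was without P6 replicate 2.

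The order of the 4 late libraries was not used by the rule. P10 replicate 1 was the highest late library for 125 of the 145 genes, or 86.2%, against 24.8% of all 10741 features, and P10 replicate 2 the lowest for 97 genes, or 66.9%, against 34.3%. P10 replicate 1 exceeded P10 replicate 2 in 140 genes, by a median ratio of 1.68, where the ratio over all features was 0.975. P6 replicate 2 exceeded P6 replicate 1 in 76 genes, or 52.4%, against 39.8% of all features, with a median ratio of 1.02 where that over all features was 0.907. P10 replicate 1 exceeded the P6 mean in 137 genes and P10 replicate 2 did so in 34, so the P10 duplicates lay on opposite sides of P6 for most of the set. The Dym share also differed between the P10 duplicates, as given above, and its part in this difference was not tested.

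No late-rising gene passed the test of P10 against P6, as none of all 13521 features did (0.0%) in limma with Benjamini-Hochberg adjustment. At an unadjusted p under 0.05, 8 of the 145 (5.52%) were higher at P10 and none lower. Of all features, 785 (5.81%) were higher and 488 (3.61%) lower. edgeR on recovered reads called none, and DESeq2 called none of the 145 and 26 higher and 41 lower features in all. The median log2 difference was 0.17 for the 145 and 0.04 over all features tested, and both P10 libraries exceeded both P6 libraries in 22 genes, or 15.2%, against 14.3% of all features, and lay below both in 6 genes, or 4.14%, against 9.2%. Rad54b had 528 and 520 normalised reads at P10 against 384 and 354 at P6, with no overlap (log2 difference 0.51, adjusted p = 0.499). Spag5, given above, stood at 0.45 (adjusted p = 0.499). On the lower side were Galntl6, a glycosyltransferase gene, with 1681 and 1270 against 2057 and 1721 (-0.36, adjusted p = 0.538), and Dtna, the gene of alpha-dystrobrevin, with 162 and 105 against 148 and 231 (-0.50, adjusted p = 0.574). Without P10 replicate 1 the median turned to -0.19 and 15 genes (10.3%) fell, beside 9.27% of all features, and without P10 replicate 2 the median was 0.57 and none passed. With equal total reads the median of the 145 was -0.06, where that of all features was -0.20.

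The rule did not use the order within the early passages. The highest early mean stood at P4 in 72 genes, at P2 in 54 and at P0 in 19, and the mean was higher at both early steps, from P0 to P2 and from P2 to P4, in 59 genes, or 40.7%, against 28.6% of all features. Both P2 libraries exceeded both P0 libraries in 90 genes, or 62.1%, against 36.5% of all features, and both P4 libraries exceeded both P0 libraries in 93, or 64.1%, against 40.1%. Tests of P2 and of P4 against P0 share the P0 libraries, so their results are not independent of each other.

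In P2 against P0, 7 of the 145 genes (4.83%) passed the test, beside 4.15% of all features. Of these, 6 rose (4.14%, beside 2.08% of all features) and 1 fell (0.69%, beside 2.07%), the feature LOC100754872, which has no symbol (-1.73, SE 0.36, adjusted p = 0.0370). That call was lost when any 1 of the 6 early libraries was left out (highest adjusted p = 0.237), with equal total reads (adjusted p = 0.0644) and in edgeR (adjusted p = 0.0569). The median log2 difference of the 145 was 0.20, against 0.01 over all features. The genes that rose were Nppa, Nrg4, Dpt, Idi1, Zdhhc15 and Cgnl1, and none of them is a gene of the cell division machinery. In P4 against P0, 11 genes (7.59%) passed, beside 9.24% of all features. All 11 rose, beside 3.72% of all features, and none fell, beside 5.52%. The same 6 were among them, together with Pttg1, Lsm1 and 3 features without a symbol, and the median was 0.21 against 0.03.

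Nppa encodes atrial natriuretic peptide, a hormone best known from heart muscle. It had 8.71 and 1.44 normalised reads at P0, then 131 and 123 at P2, then 1950 and 1959 at P4, then 6264 and 2837 at P6 and lastly 2795 and 5958 at P10. Every sampled step up to P6 was upward with no overlap, and at P10 replicate 2 was the higher library, the reverse of most of the set. The log2 difference was 4.72 (SE 0.62, adjusted p = 0.00587) for P2 against P0 and 8.65 (SE 0.62, adjusted p = 0.000191) for P4 against P0. P0 held few reads, so these fold changes depend on the pseudocount of 1. P4 against P2 stood at 3.93 and did not pass (adjusted p = 0.301), although DESeq2 called it. The call at P2 held in 8 of the 10 fits without 1 library and was lost when either P2 library was left out (highest adjusted p = 0.0658).

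Nrg4, the gene of the epidermal growth factor family ligand neuregulin 4, had 37.5 and 25.9 normalised reads in its P0 libraries, 231 and 187 in its P2 libraries, 286 and 258 in its P4 libraries, 603 and 821 in its P6 libraries, and 908 and 401 in its P10 libraries. It was higher by 2.70 (SE 0.37, adjusted p = 0.00643) at P2 and by 3.08 (SE 0.37, adjusted p = 0.00253) at P4 than at P0. Dpt, which encodes the extracellular matrix protein dermatopontin, had 64.5 and 44.6 at P0, then 361 and 264 at P2, then 432 and 403 at P4, then 672 and 613 at P6 and lastly 1047 and 901 at P10. It was higher by 2.50 (SE 0.23, adjusted p = 0.00105) at P2 and by 2.94 (SE 0.23, adjusted p = 0.000318) at P4. Dpt was above P0 already at P2, and its call at P2 held in all 10 fits that each left out 1 library, while that of Nrg4 was lost when P0 replicate 2 or either P2 library was left out (highest adjusted p = 0.0834).

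Cgnl1, which encodes the cell junction protein paracingulin, had 97.6 and 103 normalised reads in its P0 libraries, 211 and 203 in its P2 libraries, 597 and 596 in its P4 libraries, 1105 and 914 in its P6 libraries, and 1059 and 793 in its P10 libraries. Its groups did not overlap from P0 to P6, and P10 overlapped P6. The log2 difference against P0 was 1.04 (SE 0.19, adjusted p = 0.0227) at P2 and 2.56 (SE 0.19, adjusted p = 0.000234) at P4. The call at P2 was lost when any 1 of the 6 early libraries was left out (highest adjusted p = 0.207) and with equal total reads (adjusted p = 0.0610), and that at P4 held in all 10 fits without 1 library. P4 against P2 gave 1.52 and did not pass (adjusted p = 0.126).

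Idi1, an isopentenyl diphosphate isomerase of sterol and isoprenoid synthesis, had 1026 and 1128 normalised reads at P0, then 3819 and 3222 at P2, then 3524 and 3170 at P4, then 5819 and 6111 at P6 and lastly 8386 and 5542 at P10. It was higher by 1.70 (SE 0.22, adjusted p = 0.00540) at P2 and by 1.63 (SE 0.22, adjusted p = 0.00396) at P4 than at P0, with P2 and P4 overlapping. The call at P2 was lost when any 1 of the P0 or P2 libraries was left out (highest adjusted p = 0.0799), and that at P4 without P0 replicate 1 or P4 replicate 1 (highest adjusted p = 0.0622). Nsdhl, another enzyme of cholesterol synthesis, had 276 and 270 in its P0 libraries, 609 and 599 in its P2 libraries, 576 and 636 in its P4 libraries, 1280 and 2018 in its P6 libraries, and 1865 and 959 in its P10 libraries. In the list of cholesterol synthesis and uptake, 8 of 27 tested genes were higher at P2 than at P0 and none lower, with a median of 0.95. None of the 27 passed when any 1 of the P0 or P2 libraries was left out, where the median ran between 0.86 and 1.06, and 17 passed with P10 replicate 1 or P10 replicate 2 left out. Late against early, 10 of them were higher and 1 lower (8 to 12 higher and up to 6 lower with 1 library left out), and Idi1 and Nsdhl were the only 2 late-rising genes among them.

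Zdhhc15, a palmitoyltransferase gene, had 1149 and 1289 normalised reads at P0, then 2821 and 2282 at P2, then 2638 and 2626 at P4, then 4408 and 4161 at P6 and lastly 5211 and 3914 at P10. It was higher by 1.06 (SE 0.20, adjusted p = 0.0225) at P2 and by 1.11 (SE 0.20, adjusted p = 0.0113) at P4 than at P0. The call at P2 was lost when any 1 of the 6 early libraries was left out (highest adjusted p = 0.242) and with equal total reads (adjusted p = 0.0690). Pttg1 had 569 and 551 at P4 against 264 and 308 at P0 (0.97, SE 0.17, adjusted p = 0.00985), and Lsm1, a decapping cofactor gene, had 826 and 781 against 358 and 404 (1.08, SE 0.25, adjusted p = 0.0295). The groups did not overlap for either gene. At P4 the call of Zdhhc15 was lost without any 1 of the P0 or P4 libraries (highest adjusted p = 0.121), that of Pttg1 without P0 replicate 1 or either P4 library (highest adjusted p = 0.112), and that of Lsm1 without any 1 of the 6 early libraries (highest adjusted p = 0.210) and with equal total reads (adjusted p = 0.0868).

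**Figure D5:**
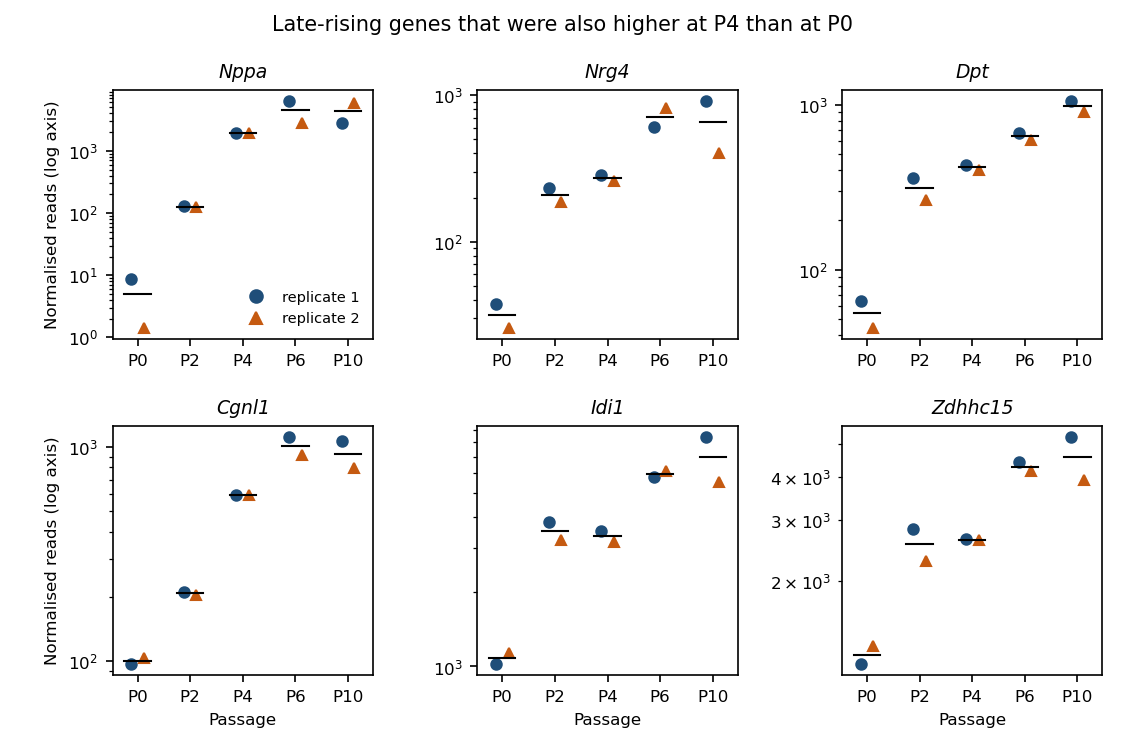
Normalised reads of Nppa, Nrg4, Dpt, Cgnl1, Idi1 and Zdhhc15 by passage on log axes. Circles are replicate 1, triangles replicate 2, and lines the mean of the 2 libraries. All 6 genes stood higher at P4 than at P0 with no overlap, and higher again at P6, and the P10 points of Nppa are in the reverse order of those of the other 5.

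No gene of the set passed P4 against P2, as none of all 13521 features did (0.0%) in limma. At an unadjusted p under 0.05, 7 of the 145 were higher and none lower, beside 162 and 123 of all features, and edgeR called none. DESeq2 called 2 of the 145 higher, Nppa and Cgnl1, and 9 higher and 1 lower in all. The genes lowest by p on the lower side were Cip2a, an inhibitor of protein phosphatase 2A, at -0.33, and Ccne2 at -0.36. Against P0, Gapdh stood at -0.32 (adjusted p = 0.547) and Ppat at -0.17 (adjusted p = 0.643) at P2, and Cenpw, a centromere protein gene, at -0.34 (adjusted p = 0.558) and Cse1l at -0.28 (adjusted p = 0.595) at P4. None of these passed.

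The early counts differed with the libraries entered, for the 145 genes and for all features. Without P6 replicate 2 and P10 replicate 1 together, 54 genes (37.2%) passed P2 against P0, beside 34.1% of all features, with 52 higher (16.7% of all features were) and 2 lower (17.5%). In P4 against P0 that fit called 58 (40.0%, beside 43.1%), with 56 higher (beside 21.8%) and 2 lower (beside 21.3%). With the spread taken only from the passages compared, 47 (32.4%, beside 29.1%) passed P2 against P0 and 52 (35.9%, beside 42.0%) passed P4 against P0. Without P10 replicate 1, 25 (17.2%, beside 11.7%) passed P2 against P0 and 34 (23.4%, beside 20.6%) passed P4 against P0, and without P10 replicate 2 the counts were the same (beside 11.6% and 20.4%). With P6 replicate 1 or P6 replicate 2 left out, the share of the 145 that passed P2 against P0 lay slightly below that of all features. The same held for P4 against P0. With P2 replicate 1 or P2 replicate 2 left out, 1 passed P2 against P0, beside 0.592% and 0.451% of all features.

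The chromosome of 135 of the 145 genes was found by gene number or symbol in RefSeq's CriGri-PICRH-1.0 assembly, which may not be the build used by the authors. Of these, 32 (23.7%) lay on chromosome 1, 22 (16.3%) on chromosome 2, 25 (18.5%) on chromosome 3 and 18 (13.3%) on chromosome 4, where all features placed had 21.0%, 18.0%, 13.6% and 12.1%. The genes were thus spread over the karyotype, with none on chromosomes 9 and 10, which held 1.69% and 0.553% of all features.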

How the data were processed

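Whole-cell RNA of CHO-K1 cells was depleted of ribosomal RNA and sequenced as stranded libraries on a MiSeq, per the labels' protocols. The deposited signal is read counts divided by DESeq size factors by the authors, per the submitters' processing notes, which name DESeq without a version. For the aligner, counting rule, use of strand, build and annotation nothing is given in the sources used here, so overlapping genes and near-identical copies are uncertain. In every column 100.0% of the values were whole multiples of the smallest value above 0, within 0.01 reads, so reads were recovered by division. For P4 replicate 1, whose size factor is close to 1, scaled reads could not be told from rounded values automatically, and the same division was used.

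Genes named by a number (108 of the 145) took their symbols from RefSeq's CriGri-PICRH-1.0 gene table, which matched 135 of the 145. Tests used limma 3.58.1 in R 4.3.3 on log2(value + 1) of the deposited signal, keeping features with a mean of 10 or more (13521). A single fit of all 10 libraries estimated 1 mean for each passage, with trended moderation, two-sided tests and Benjamini-Hochberg adjustment over all features at 0.05. Differences are on the log2(value + 1) scale, which understates changes of low genes. edgeR 4.0.16 (quasi-likelihood) and DESeq2 1.42.0 on recovered reads were alternatives; for late against early, edgeR called 1830 higher and 1253 lower features. The limma script was tested on simulated data.

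The members and lists were chosen with earlier results of these data known. Named genes were those with the largest ratio (12) or late mean (8), the smallest p in each comparison, up to 4 per list, and 3 on either side of the threshold. Those outside these rules (Ube2c, Cdk2, Skp2, Spc25, Ndc80, Ttk, Orc6, Gmnn, Hmgb1, Bag2, Pttg1, Lsm1, LOC100754872, LOC100760951, Mki67, Pcna, Mcm2, Cdk1 and Top2a) were chosen after their values were seen. Roles were assigned by hand from background knowledge once the members were known. Members that are not named are given by counts and ranges only. No sequence is printed, because the sources used here hold none for this hamster.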

Additional observations from a re-analysis of the deposited data

How the results depend on the processing

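The number of late-rising genes was 259 with a ratio of at least 1.2 and 41 with 1.5. Without P6 replicate 2 and P10 replicate 1 together it was 232, of which 141 were among the 145. With 1 library left out it ran between 144 and 753, with 753 reached without P10 replicate 2 and 218 without P6 replicate 2. Leaving out a library cannot lower the ratio of a gene, so a member could be lost only through its mean. The members kept in these fits are therefore no test of the set. Equal total reads gave 144 genes, 86 of them shared, and TMM scaling 132, 129 of them shared. All 145 kept every late library above every early one under both scalings. The margin in the rule exceeds the largest change in ratio that either scaling could make. This result therefore follows from the rule and is no test of the set.

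In P10 against P6, 0 to 15 genes passed with 1 library left out (15, all lower, without P10 replicate 1), and 23 without both libraries (1 higher and 22 lower). In P2 against P0, 4 passed with equal total reads, 47 with the spread of the passages compared, 54 without both libraries, 12 in DESeq2, and 1 to 25 with 1 library left out. In P4 against P2, 8 genes (5.52%, beside 4.21%) passed with the spread of the passages compared, and 2 (1.38%, beside 0.074%) in DESeq2. With 1 library left out, the median log2 difference of the 145 ran between -0.05 and 0.06. In P4 against P0, 7 passed with equal total reads, 52 with the spread of the passages compared, 58 without both libraries, 19 in DESeq2, and 4 to 34 with 1 library left out. Late against early, 3092 features passed, 5302 without both libraries, and 994 to 6817 with 1 library left out. The cause was not tested. Fewer libraries leave fewer residual degrees of freedom, and a passage left with 1 library is assumed to vary like the others. Several counts were higher without late libraries. The spread of each gene is pooled over the passages. The median absolute log2 difference between duplicates was 0.43 at P6 and 0.58 at P10, and between 0.13 and 0.17 at P0, P2 and P4. The part of this wider late spread in the counts was not tested. With equal total reads, 2.76% of the 145 passed P2 against P0, beside 2.71% of all features. In P4 against P0 the shares were 4.83% beside 7.09%. In DESeq2 they were 8.28% beside 7.85% and 13.1% beside 13.4%, in the same order. In P10 against P6, leaving out both libraries left 1 library at P6 and 1 at P10. The median log2 difference was then -0.17 for the 145 and -0.001 over all features. None of the differences given with a test for a single gene changed sign under the alternatives run for it. For the tests, leaving both libraries out and crossing the P6 numbers were chosen after seeing the data.

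Replicate numbers did not pair the libraries: deviations of same-numbered libraries correlated between -0.67 (P6 and P10) and 0.23 (P2 and P10). With a replicate block 0 genes passed P10 against P6 or P4 against P2, as did 0.0% of all features. In that fit 6 (4.14%, beside 1.93% of all features) passed P2 against P0 and 9 (6.21%, beside 5.67%) passed P4 against P0. Late against early, 2159 features passed. Under the block LOC100754872 (adjusted p = 0.0736) did not pass P2 against P0, nor Lsm1 (adjusted p = 0.0621) P4 against P0. With the P6 numbers crossed, 0 passed P10 against P6. Groups of 2 libraries limit every test here, and a count of 0 does not show that levels were alike.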
